A study of Nicotiana tabacum with 30 samples.

Results

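The genes described here are 33 tobacco leaf genes whose RNA was low after 1 h of drought and back near or above its starting level at 8 h, in both of the genotypes sequenced. They were chosen from their own values. In M28 and in K326 alike, the group mean of log2(FPKM + 1) at 1 h had to lie at least 0.8 below that at 0 h (a difference of -0.8 or lower), and the mean at 8 h no further below 0 h than 0.4 (a difference of -0.4 or higher). FPKM scales a gene's fragment count by gene length and by library size. Of 35519 gene IDs in the table, 19599 had a mean of at least 1 FPKM over all libraries and could enter. Of these, 33 met the rule. Of 317 genes with such a dip at 1 h in both genotypes, 250 were still more than 0.4 below 0 h at 8 h in both, 34 in one genotype, and the other 33 are the recovered genes. The drop at 1 h and the return at 8 h are therefore how the genes were found, and these values are given as a description with no test.

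Leaves of Nicotiana tabacum were sampled at 0, 1, 2, 4 and 8 h in M28, a mutant with enhanced drought resistance that was obtained from K326 with the mutagen EMS (ethyl methanesulfonate), and in its parent K326, a flue-cured tobacco cultivar, with 3 libraries for each of the 10 groups. Plants grew in pots of soil under 16 h of light and 8 h of dark, and pots held 3 seedlings each at treatment. The growth protocol speaks of replicates of 10 seedlings in a pot but ties no library to one. The protocol names natural drought and drought simulated with 200 mM mannitol, an osmotic agent, without saying which of these each library had. M28 is 1 mutant line. With no label that assigns libraries to separate plants, the p-values rest on differences among these libraries, part of which may be technical. Watered plants after 0 h were not analysed here. Time under drought and time of day therefore cannot be told apart.

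Water shortage is known to raise abscisic acid in leaves, which closes stomata, and to change the RNA of many genes within the first hours. Some of these changes are transient, and many leaf genes also follow a daily rhythm. Tobacco is an allotetraploid, with near-identical gene copies from its ancestral species, so that reads of one copy can be counted for another and values of single IDs are uncertain to that extent. The table pairs no ID with a name or description, and RefSeq genes of the assembly ASM71507v2 matched 0 of 35519 IDs. Roles of the genes can therefore not be given, the leaf label was not checked against marker genes, and the genes are named by ID. In bulk leaf RNA, fewer cells of a type and less RNA per cell cannot be told apart.

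Several libraries stood apart in the recovered genes. In K326 1 h replicate 3 the median gene was 0.56 lower on the log2 scale (a difference of -0.56) than the mean of the other 2 replicates, and this library was the lowest of its group for 23 of the 33 genes (69.7%, against 39.9% of the genes tested). M28 8 h replicate 3 was 0.45 higher and the highest of its group for 26 of 33 (78.8%, against 41.1%). Its relative depth, read from the steps between low values, was 0.478 times that of the median library, whereas the other libraries lay between 0.889 and 1.253. K326 4 h replicate 3 was the highest of its group for 21 genes (63.6%, against 32.1%), and M28 1 h replicate 3 for 22 (66.7%, against 40.9%). Over all genes tested, the median of each of these 4 libraries was within 0.04 of its replicates. K326 0 h replicate 1 was the lowest of its group for 25 genes (75.8%, against 52.3%) and M28 2 h replicate 1 for 24 (72.7%, against 33.2%). K326 1 h replicate 1 was 0.41 higher than the mean of the other 2 replicates, and 0.08 higher over all genes tested. It was the highest of its group for 19 genes (57.6%, against 45.9%). The part of depth in these deviations was not tested.

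**Figure D1:**
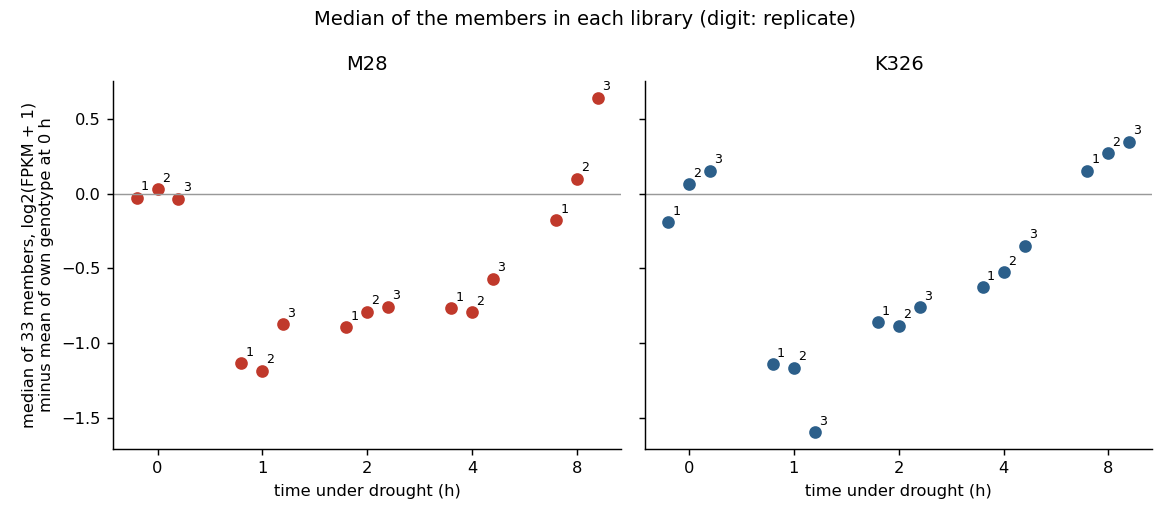
Median of the 33 genes in each library, as log2(FPKM + 1) minus the mean of the same genotype at 0 h, by time under drought, with M28 on the left and K326 on the right; digits are replicate numbers. All libraries at 1, 2 and 4 h lie below 0, K326 1 h replicate 3 is lowest at -1.595 and M28 8 h replicate 3 is highest at 0.641.

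At 1 h the 33 genes stood at a median of 45.3% of their 0 h mean FPKM in M28 (range 12.6 to 57.5%) and 40.3% in K326 (7.65 to 56.6%). On the log2 scale the median difference was -1.05 in M28 and -1.29 in K326, while the median of all 19599 genes was 0.01 and 0.03. The deeper of the 2 dips was that of K326 in 23 genes and that of M28 in 10. All 3 libraries at 1 h were below all 3 at 0 h for 32 of 33 genes in M28, where 17.5% of all genes tested showed this, and for 31 in K326, where 14.6% did. Since the rule used this contrast, nothing is read from those counts. Without K326 1 h replicate 3 the median difference in K326 was -1.11, and 29 of the 33 genes were still at -0.8 or lower.

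The members at the edge of the rule differed little from genes just outside it. The shallowest dip inside was -0.81, and the next gene outside was at -0.797. At 8 h the lowest member was at -0.37 and the next gene outside at -0.402. Within 0.1 of the dip threshold lay 8 members and 34 genes outside that were recovered at 8 h. Within 0.1 of the recovery threshold lay 5 members and 10 genes outside that had dipped at 1 h.

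The same differences were then read in libraries that had played no part in choosing the genes. When all replicates numbered 2 were left out, 31 genes met the rule, 25 of them members, and in the left-out libraries their median difference at 1 h was -1.04 in M28 and -1.18 in K326. Of these 31 genes, 25 were at -0.8 or lower in M28 and 24 in K326, against 5.61 and 5.22% of all genes tested. With replicates numbered 3 left out, 35 genes met the rule, 22 of them members. Of these 35 genes, 14 reached -0.8 in the left-out M28 libraries and 33 in the left-out K326 libraries (2.82 and 9.23% of genes tested). Their median difference at 1 h was -0.72 in M28 and -1.98 in K326. With replicates numbered 1 left out, 52 genes met it, only 25 of them members, and 32 reached -0.8 in M28 and 20 in K326 (3.45 and 2.91%). The median difference of these 52 genes at 1 h was -1.15 in M28 and -0.54 in K326. The 3 gene sets differ, so their values do not compare the replicates with each other. The return at 8 h was read in the left-out libraries as well. With replicate 1 left out, 76.9% of the chosen genes were at -0.4 or higher in M28 (83.0% of genes tested) and 92.3% in K326 (86.1%). With replicate 2 left out these shares were 90.3% in M28 (81.4%) and 83.9% in K326 (80.9%), and with replicate 3 left out 100% in M28 (80.2%) and 85.7% in K326 (83.3%). Most genes tested were thus at -0.4 or higher at 8 h too, and the chosen genes' share was below theirs in 1 of the 6 cases.

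**Figure D2:**
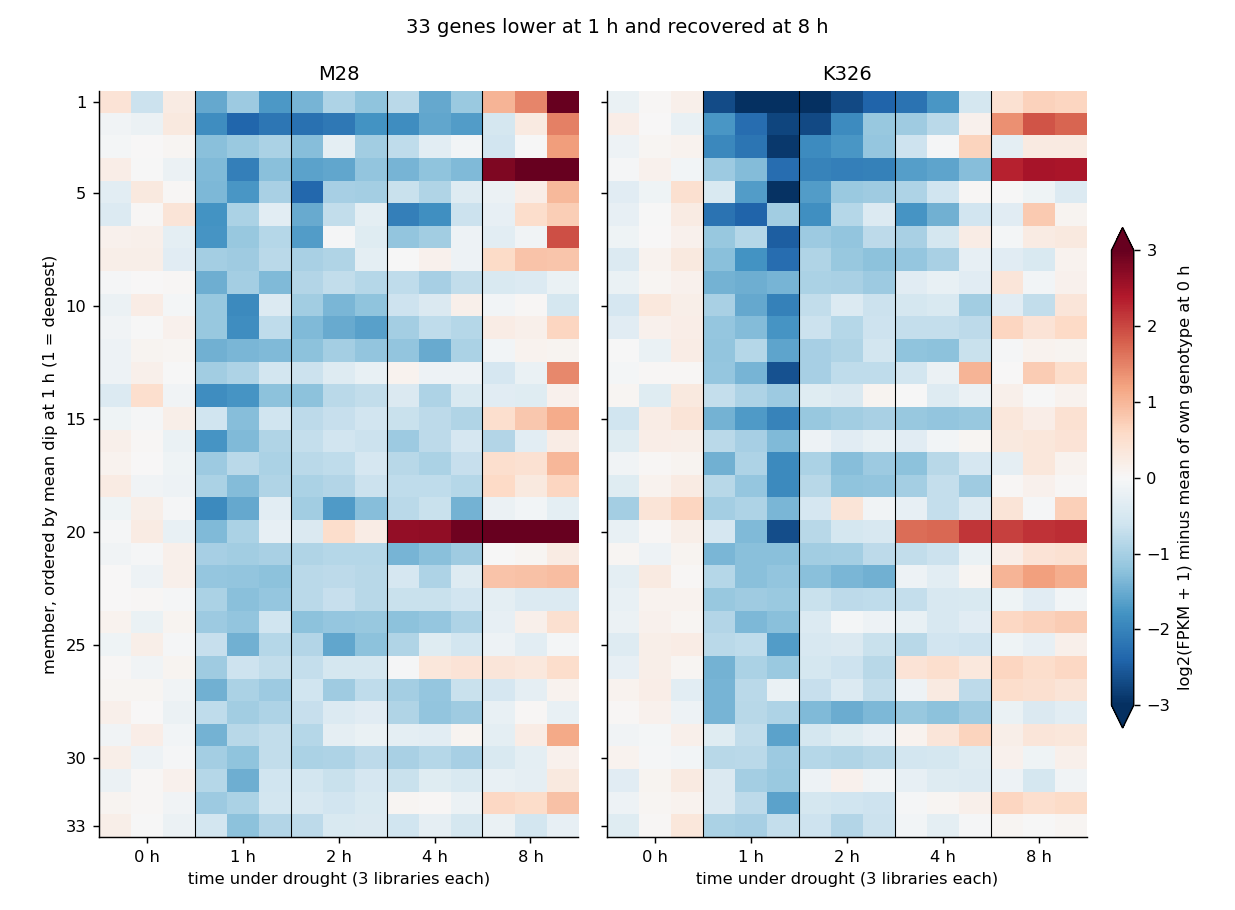
Heat map of the 33 genes (rows, ordered by the mean dip at 1 h) in all 30 libraries (columns, 3 for each time, M28 left and K326 right), coloured by log2(FPKM + 1) minus the mean of the same genotype at 0 h; colours end at -3 and 3. Most rows remain blue at 2 h and many at 4 h, and rows 4 and 20 (Nitab4.5_0000212g0150 and Nitab4.5_0001401g0110) are dark red in every library at 8 h.

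The deepest dip belonged to Nitab4.5_0002080g0050. In M28 its 3 libraries gave 3.81, 1.30 and 3.28 FPKM at 0 h, 0.250, 0.706 and 0.101 FPKM at 1 h, and 6.33, 9.07 and 28.6 FPKM at 8 h. In K326 they gave 31.7, 37.4 and 40.6 FPKM at 0 h, 4.83, 2.61 and 0.952 FPKM at 1 h, and 50.3, 59.5 and 57.7 FPKM at 8 h. No library at 1 h reached any at 0 h in either genotype, and every M28 library at 0 h and 1 h was below every K326 library of the same time. The log2 difference from 0 to 1 h was -1.45 in M28 and -3.44 in K326. With a pseudocount of 0.1 FPKM it was -2.78 in M28, since M28 values at 1 h were under 1 FPKM.

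Next came Nitab4.5_0000532g0070. Its M28 libraries stood at 10.7, 10.2 and 14.4 FPKM at 0 h and at 2.50, 1.45 and 1.82 FPKM at 1 h. Those of K326 stood at 15.6, 13.7 and 11.4 FPKM at 0 h and at 3.31, 1.96 and 1.14 FPKM at 1 h. Here the genotypes overlapped at both times, and the log2 differences were close (-2.13 in M28 and -2.26 in K326). At 8 h the M28 libraries were spread from 7.83 to 35.1 FPKM, with replicate 3 the highest, against 36.3 to 52.5 FPKM in K326. Without replicate 3 the M28 difference from 0 to 8 h was -0.13, and it was 0.42 with it.

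The course between the dip and the recovery was not part of the rule, apart from the 0 h libraries it is read against. At 2 h no gene was back in both genotypes, that is at -0.4 or higher against 0 h with no upper limit. Still at -0.8 or lower in both were 12 genes. At 4 h 6 genes were back in both and 6 still low in both, with 21 between or unlike in the genotypes at each of these times. The median difference from 0 h in M28 was -0.83 at 2 h and -0.79 at 4 h, and in K326 it was -0.85 at 2 h and -0.49 at 4 h. In M28 the lowest mean was at 1 h for 24 genes, 2 h for 6 and 4 h for 3. In K326 it was at 1 h for 30 genes and 2 h for 3. Most of the return to the starting level thus lay between 4 and 8 h in M28, and in K326 part of it was present at 4 h.

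At 8 h the genes ended at different levels. In both genotypes 17 were within 0.4 of 0 h on the log2 scale, 19 were above 0 h and 5 below it. The median difference from 0 h was 0.25 in M28 and 0.18 in K326, against 0.12 and 0.21 for all genes tested. Without M28 8 h replicate 3 the M28 median was -0.04, and 31 of the 33 genes remained at -0.4 or higher. Only 3 genes ended at 0.8 or more above 0 h in both genotypes.

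The largest excess at 8 h was that of Nitab4.5_0001401g0110, which also had the highest mean over all libraries, 326.1 FPKM. In M28 it gave 43.0, 52.3 and 37.3 FPKM at 0 h, 16.9, 22.3 and 37.0 FPKM at 1 h, and 563, 607 and 718 FPKM at 8 h. In K326 it gave 188, 223 and 249 FPKM at 0 h, 154, 87.0 and 33.6 FPKM at 1 h, and 905, 978 and 1015 FPKM at 8 h. In M28, replicate 3 at 1 h was only just below the lowest library at 0 h, and all libraries at 8 h were far above both. Its log2 difference at 1 h was -0.83 in M28 and -1.495 in K326, and the K326 value was -0.91 without replicate 3. With 1 library left out the M28 value was -0.589 at its shallowest, short of the -0.8 of the rule.

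A late excess without an earlier return marked Nitab4.5_0000212g0150. Its mean in M28 was 16.6 ± 2.23, 5.19 ± 1.70, 5.46 ± 1.05, 6.07 ± 0.433 and 164 ± 45.8 FPKM (SD, n = 3) over the successive times 0, 1, 2, 4 and 8 h. In K326 the means were 34.4 ± 2.84, 11.7 ± 4.89, 7.70 ± 0.159, 11.5 ± 1.71 and 187 ± 11.6 FPKM at the same times. The 3 libraries at 8 h were above 120 FPKM in both genotypes, and none of the earlier libraries passed 37.65 FPKM. The second most abundant member, Nitab4.5_0001079g0100, returned earlier. It had a mean of 215 ± 25.8 FPKM at 0 h, 109 ± 26.4 at 1 h and 190 ± 29.9 at 4 h in M28. In K326 it had 446 ± 43.7 FPKM at 0 h, 252 ± 99.6 at 1 h and 585 ± 117 at 4 h. Its log2 difference at 1 h was -0.996 in M28 and -0.902 in K326. Without K326 1 h replicate 3 the K326 value was -0.551, short of the -0.8 of the rule. With 1 library left out the M28 value was -0.781 at its shallowest.

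**Figure D3:**
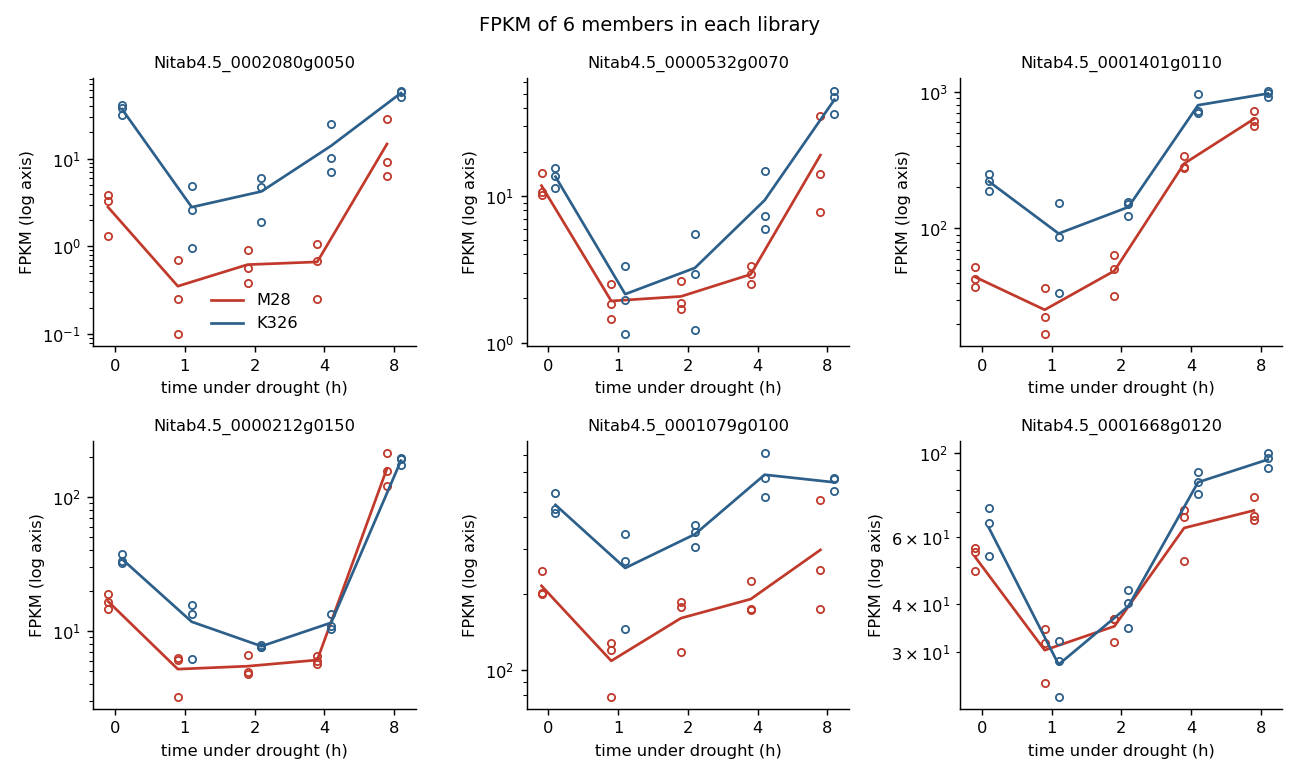
FPKM (log axis) of 6 of the genes in each library by time under drought, with the times drawn at equal spacing; circles are libraries and lines join the group means, M28 in red and K326 in blue. Nitab4.5_0001401g0110 and Nitab4.5_0001668g0120 have means above 0 h by 4 h, Nitab4.5_0000212g0150 only at 8 h.

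The step from 2 to 4 h uses libraries that entered the rule only through the filter on mean FPKM. It was therefore tested, with limma over all genes and Benjamini-Hochberg adjustment over the 19599 genes. The rule asks for a rise somewhere between 1 and 8 h, however, and so favours rises in this step. The shares over all genes are for that reason no neutral background for it. In K326, 10 of the 33 genes were higher at 4 h than at 2 h at an adjusted p below 0.05 (30.3%), where 6.96% of all genes tested were. None was lower, where 5.94% of all genes were, and none had an unadjusted p below 0.05 in that direction. Rises ranged from 0.43 to 2.46 on the log2 scale, and 6 were of 1 or more. The median of the 33 genes was 0.37, against -0.01 for all genes, and 24 of the 33 were higher at 4 h in their means. The count was 5 without K326 4 h replicate 3 and 6 without K326 2 h replicate 2.

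In K326 the largest step was that of Nitab4.5_0001401g0110, with 702, 718 and 964 FPKM at 4 h, against 122, 151 and 156 FPKM at 2 h (log2 change 2.46, SE 0.328, adjusted p = 7.85e-06). Nitab4.5_0000718g0110 gave 14.2, 21.9 and 36.6 FPKM at 4 h, against 5.33, 5.97 and 9.55 FPKM at 2 h (log2 change 1.60, SE 0.351, adjusted p = 0.00258). The groups did not overlap for either gene, which was a condition for naming them. Both genes kept their call whichever of the 30 libraries was left out and in the 7 other settings run.

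In M28, 2 of the 33 genes were higher at 4 h than at 2 h (6.06%, against 5.48% of all genes tested) and 2 were lower (6.06%, against 3.61%). Their median change was 0.14, against 0.07 for all genes. These shares are near those of all genes. The number higher was 4 without M28 1 h replicate 2 or replicate 3, 5 without K326 1 h replicate 1 and 6 without K326 1 h replicate 3. These libraries are not among those compared and enter only through the estimate of each gene's spread. With only the compared groups in the fit it was also 6. The shares of all genes called in these other fits are not given here, so their counts have no background beside them. Nitab4.5_0001401g0110 rose in M28 as well, to 276, 281 and 335 FPKM at 4 h, against 32.3, 63.7 and 50.9 FPKM at 2 h (log2 change 2.63, SE 0.328, adjusted p = 3.64e-06). Nitab4.5_0001668g0120 gave 51.9, 67.9 and 70.6 FPKM at 4 h, against 31.8, 36.7 and 36.6 FPKM at 2 h (log2 change 0.83, SE 0.130, adjusted p = 7.91e-05). These were also the 2 genes that rose in both genotypes.

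In the other direction, Nitab4.5_0001970g0050 fell in M28 to 83.9, 69.2 and 74.6 FPKM at 4 h, against 96.3, 117 and 123 FPKM at 2 h (log2 change -0.55, SE 0.124, adjusted p = 0.00415). In K326 it stood at 80.2, 75.7 and 84.9 FPKM at 4 h, against 71.0, 62.6 and 69.6 FPKM at 2 h, which was not called. The groups of libraries did not overlap in either genotype, which in M28 was a condition for naming the gene. Nitab4.5_0001467g0100 was also lower in M28, at 5.21, 5.94 and 6.79 FPKM at 4 h, against 7.83, 8.08 and 8.08 FPKM at 2 h (log2 change -0.37, SE 0.119, adjusted p = 0.0496). This call was lost when any of 22 of the 30 libraries was left out, with an adjusted p of up to 0.221.

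**Figure D4:**
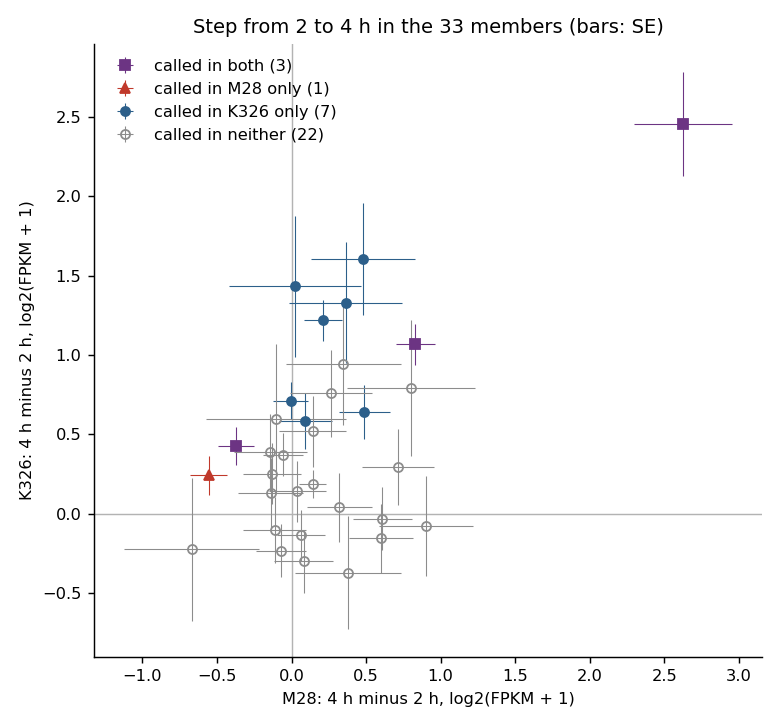
Log2 change from 2 to 4 h of the 33 genes, M28 on the horizontal axis and K326 on the vertical axis, with bars of 1 SE from the fit; symbols show the genotypes in which the change passed an adjusted p of 0.05. Of the genes, 7 were called in K326 only, 1 in M28 only, 3 in both and 22 in neither.

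Whether the step itself differed between the genotypes was tested as the difference of the log2 changes. It was called for 2 of the 33 genes, both with a lower value in M28 (6.06%, against 0.138% of all genes tested in this direction and 0.0204% in the other). Over the 33 genes the median difference was -0.27, against 0.06 for all genes. The larger was that of Nitab4.5_0002611g0130, with 27.8, 20.4 and 29.95 FPKM at 4 h and 22.1, 22.5 and 21.7 FPKM at 2 h in M28, and 27.5, 24.8 and 32.1 FPKM at 4 h and 12.3, 11.3 and 10.8 FPKM at 2 h in K326 (difference -1.01, SE 0.180, adjusted p = 0.012). The genotypes overlapped at 4 h and were apart at 2 h. Nitab4.5_0001467g0100, which rose in K326 and fell in M28, had a difference of -0.80 (SE 0.169, adjusted p = 0.0456). Without K326 4 h replicate 3 neither was called, with an adjusted p of 0.0747 for the first. The call of the second was lost when any of 22 of the 30 libraries was left out. Of the 7 genes whose step was called in K326 and not in M28, only Nitab4.5_0002611g0130 was thus shown to differ between the genotypes.

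The same 2 h and 4 h libraries give the genotype difference of the recovering genes. At 4 h, 16 of the 33 genes were lower in M28 than in K326 (48.5%, against 8.19% of all genes tested), and 4 were higher (12.1%, against 28.4%). At 2 h, 9 were lower (27.3%, against 7.56%) and 6 were higher (18.2%, against 19.7%). The median difference of the 33 genes was -0.40 at 4 h, where all genes tested had 0.17, and -0.24 at 2 h, where they had 0.10. With median-of-ratios scaling, which brings the median of all genes to 0.00 at both times, 18 genes were lower and 3 higher at 4 h. At 2 h, 11 were then lower and 4 higher. The shares of all genes called under that scaling are not given here. The shares above do not apply to it, so these counts do not show a larger or smaller contrast with all genes. All 9 genes lower in M28 at 2 h were also lower at 4 h, 1 gene was higher at both, and 1 was called in opposite directions at the 2 times. The number higher at 4 h was 2 without M28 4 h replicate 3 or without K326 4 h replicate 3.

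At 4 h the largest difference was again that of Nitab4.5_0002080g0050, with 1.07, 0.252 and 0.679 FPKM in M28, against 7.01, 10.2 and 24.8 FPKM in K326 (M28 minus K326 -3.02 on the log2 scale, SE 0.444, adjusted p = 1.14e-05). Nitab4.5_0001552g0120 gave 2.62, 2.99 and 6.45 FPKM in M28, against 20.4, 28.4 and 48.5 FPKM in K326 (M28 minus K326 -2.73 on the log2 scale, SE 0.470, adjusted p = 8.08e-05). At 2 h the same gene stood at 1.60, 7.01 and 5.41 FPKM in M28, against 18.8, 17.5 and 23.5 FPKM in K326 (M28 minus K326 -2.02 on the log2 scale, SE 0.470, adjusted p = 0.00225). Nitab4.5_0000041g0020 followed at 2 h, with 11.2, 30.6 and 29.996 FPKM in M28, against 58.2, 87.2 and 89.4 FPKM in K326 (M28 minus K326 -1.77 on the log2 scale, SE 0.427, adjusted p = 0.00321). For none of these genes did the genotypes overlap at the time given, which was a condition for naming them.

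Higher in M28 at 4 h was Nitab4.5_0001642g0050, with 17.1, 19.6 and 30.4 FPKM in M28, against 11.1, 11.9 and 7.50 FPKM in K326 (M28 minus K326 1.05 on the log2 scale, SE 0.314, adjusted p = 0.0112). This call was lost without M28 4 h replicate 3 (adjusted p = 0.0753) or K326 4 h replicate 3 (adjusted p = 0.0645). Nitab4.5_0001525g0070 had 13.7, 9.39 and 13.4 FPKM in M28, against 7.22, 5.33 and 6.31 FPKM in K326 (M28 minus K326 0.84 on the log2 scale, SE 0.218, adjusted p = 0.00398). At 2 h Nitab4.5_0002611g0130 was higher in M28 by 0.89 (SE 0.128, adjusted p = 1.08e-05), from the values given above. Nitab4.5_0000062g0150 had 11.3, 7.97 and 10.1 FPKM in M28, against 5.15, 6.41 and 4.91 FPKM in K326 at 2 h (M28 minus K326 0.73 on the log2 scale, SE 0.243, adjusted p = 0.0273). This last call was lost under both other scalings, where the adjusted p was at most 0.0698, and without M28 2 h replicate 1 or 3 or K326 2 h replicate 1 or 3, where it was at most 0.105.

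**Figure D5:**
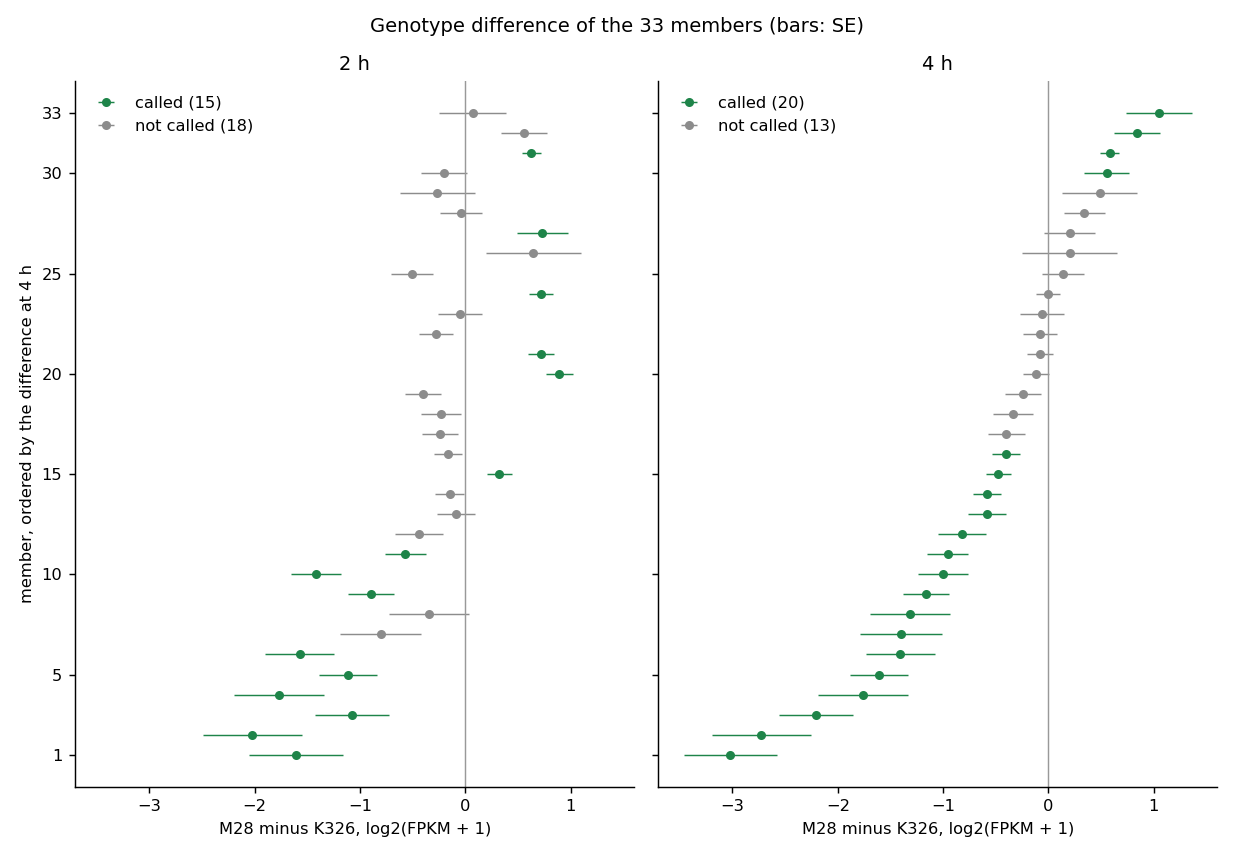
Difference M28 minus K326 of the 33 genes on the log2(FPKM + 1) scale at 2 h (left) and 4 h (right), each with 1 SE, in the order of the difference at 4 h; green points passed an adjusted p of 0.05. At 4 h 20 genes were called, 16 of them below 0, and at 2 h 15 were called, 9 of them below 0.

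The direction of the difference was also read at 0 h, before drought. Of the 16 genes lower in M28 at 4 h, 15 also had a lower mean in M28 at 0 h, with a median log2 difference there of -1.03, and the 4 genes higher in M28 at 4 h were all higher at 0 h (median 0.67). At 0, 1, 2, 4 and 8 h the median difference M28 minus K326 over the 33 genes was -0.19, -0.06, -0.24, -0.40 and -0.09. All genes tested had medians of 0.22, 0.20, 0.10, 0.17 and 0.13 at these times. The values at 0, 1 and 8 h come from libraries that the rule used and are given with no test.

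The genes were compared with the 250 that dipped alike at 1 h in both genotypes and were still more than 0.4 below 0 h at 8 h in both. In K326, 8 of those 250 genes were higher at 4 h than at 2 h and 53 lower (3.2 and 21.2%). In M28, 3 were higher and 37 lower (1.2 and 14.8%). The 76 genes with the mirror image, up by 0.8 or more at 1 h and no more than 0.4 above 0 h at 8 h, had 1 higher and 23 lower in K326, and 1 higher and 17 lower in M28. At 4 h, 72 of the 250 genes were lower in M28 than in K326 (28.8%) and 40 higher (16%). At 2 h, 65 were lower (26%) and 44 higher (17.6%), which is close to the shares of the 33 genes at that time. A share lower in M28 above that of all genes was thus found there too at both times. All 3 sets were chosen by their 8 h values, which bears on their steps from 2 to 4 h. The difference between these sets was not tested.

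In level, the recovered genes had means over all libraries between 2.28 and 326.1 FPKM, with a median of 15.6 FPKM, against 12.1 FPKM for all genes tested. No member was listed at 0 in any library. Their spread between replicates was wider, with a median residual SD of 0.29 on the log2 scale, against 0.16 for all genes tested and 0.27 for the 250 genes that stayed low. The 33 genes lie on 33 different scaffolds by their IDs. The table holds 60 IDs directly before or after them on the same scaffold, 29 of which were tested. None of these neighbours is a member, and none had a mean dip of -0.8 or lower at 1 h. Dips are rare over all genes tested (317 of 19599 dipped in both genotypes), so nothing is read from this.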

How the data were processed

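RNA of 30 tobacco leaf libraries was analysed, grouped by genotype and time from the sample titles. The authors deposited 1 table of FPKM values with 1 column per library. FastQC, Trimmomatic, HISAT2 and featureCounts are named in the submitters' processing notes. Their versions, the build and how FPKM was computed are not given in the sources used here. That the unit is FPKM comes from the table's name, and TPM over more genes would look alike. The scale was log2(FPKM + 1), whose pseudocount of 1 FPKM understates changes of low genes, and a gene had to average 1 FPKM or more. All 30 libraries entered 1 fit of 10 groups with limma 3.58.1 in R 4.3.3 (empirical Bayes, mean-variance trend), tested on simulated data, and p-values were adjusted over the 19599 genes (Benjamini-Hochberg, threshold 0.05). The 5 comparisons tested use only 2 h and 4 h libraries. Their spread comes from all libraries.

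Named genes were the 2 members with the deepest dip, the 2 with the largest excess at 8 h (both with at least 5 FPKM at 0 h), the 2 most abundant, and per comparison and direction the first 2 called members by size with a mean of 5 FPKM in the higher group whose libraries did not overlap. The members and lists were chosen with earlier results of these data known. Alternatives were another pseudocount, no filter, other scalings, only the compared groups, a replicate block and leaving out each library. Relative depth was read from 2582 genes above 0 in few libraries, through those ratios between libraries that fall on whole-read ratios. At the best depth ratio of 2 libraries, 13% of the ratios did so (median over library pairs), against 0% at other depth ratios. Of 435 library pairs, 78.9% fitted one set of depths within 0.005 on the log2 scale. Absolute depth is unknown, so counting intervals are not given.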

Additional observations from a re-analysis of the deposited data

Results flagged for a closer look

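The step from 2 to 4 h differed between the genotypes for 2 of the 33 genes (6.06%), both with a lower value in M28. The test was of the difference itself (limma, Benjamini-Hochberg adjustment over all genes). Of all genes tested, 0.138% were called in this direction and 0.0204% in the other. The difference of the log2 changes, M28 minus K326, was -1.009 for Nitab4.5_0002611g0130 (adjusted p = 0.012) and -0.80 for Nitab4.5_0001467g0100 (adjusted p = 0.0456). The first had means of 26.0 and 22.1 FPKM at 4 and 2 h in M28 and of 28.1 and 11.5 FPKM in K326. The second had 5.98 and 8.00 FPKM in M28 and 8.80 and 6.22 FPKM in K326, so its steps ran in opposite directions, both called. Without K326 4 h replicate 3 neither difference was called. For the second gene, the call of the difference was lost when any of 22 of the 30 libraries was left out. Its call in M28 was also lost in 22 of these 30 fits.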

How the results depend on the processing

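The choice of genes depended on the low end of the scale: with a pseudocount of 0.1 FPKM 76 genes met the rule, 32 of them among the 33. Median-of-ratios scaling gave 30 genes (24 shared) and quantile normalization 29 (25 shared). Leaving out 1 library gave 31 to 53 genes, the most without M28 1 h replicate 3. With K326 1 h replicate 3 and M28 8 h replicate 3 both left out, an alternative chosen after seeing the data, 30 genes met it (27 shared).

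For the fixed 33 genes, leaving out 1 library gave 5 to 13 genes higher and 0 lower at 4 h than at 2 h in K326, and 2 to 6 higher and 1 to 2 lower in M28. It gave 4 to 7 higher and 6 to 11 lower in M28 than in K326 at 2 h, 2 to 4 higher and 14 to 17 lower at 4 h, and 0 to 3 genes with a different step. Without a filter on low values 1 gene was lower at 4 h than at 2 h in M28, and 1 gene had a different step. With only the compared groups fitted, 6 were higher and 1 lower at 4 h than at 2 h in M28. With both libraries left out that stood apart, 6 were higher there, and 4 genes had a different step. The shares of all genes called in these other fits are not given here, so their counts cannot be set against a background. In the tests, the named genes kept their direction in all 592 values recomputed, and 57 were no longer called. Many of these values could not change direction. Leaving out a library outside the compared groups alters the spread or the adjustment and not the log2 change. The same holds without a filter, with only the compared groups and with a replicate block. The untested M28 difference from 0 to 8 h changed sign without M28 8 h replicate 3 for Nitab4.5_0000532g0070 (-0.13, against 0.42 with it) and Nitab4.5_0001079g0100 (-0.04, against 0.35). The cause was not tested.

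Deviations of same-numbered libraries at 2 and 4 h correlated weakly, between -0.0708 and 0.15, and those of differently numbered ones between -0.159 and 0.0914. Libraries numbered 3 correlated positively in every pair of groups compared (0.0399 to 0.15), and so did those numbered 1 (0.0168 to 0.11). Those numbered 2 lay between -0.0708 and 0.0306. In the recovered genes the median difference from the other 2 replicates was mostly higher for replicate 3 than for replicate 1. M28 0 h (-0.05 against -0.04) and K326 1 h (-0.555 against 0.41) were the exceptions. Whether the numbers mark paired libraries was not tested. With the replicate number as a block, 11 genes were higher at 4 h than at 2 h in K326 and 2 in M28. In that fit 16 were lower in M28 than in K326 at 4 h, and its shares of all genes are not given here.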
